A study of Mus musculus with 20 samples.

Results

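The 10 genes described here belong to the amino acid stress response and to the synthesis of serine and of mitochondrial folate units. They are Atf4, Ddit3, Trib3, Chac1, Asns, Phgdh, Psat1, Psph, Mthfd2 and Aldh1l2, taken by symbol from 23361 entries of each count table, and all 10 were found in both tables. They were followed in 20 stranded mRNA libraries of mouse embryonic stem cells on their way to epiblast stem cells, the primed pluripotent cells that resemble the epiblast after implantation. The female line PGK and the male line E14 were kept in 2i medium, which holds cells in the naive state, and were then grown on fibronectin in N2B27 medium with activin A and Fgf2. RNA was taken at day 0 (2i), day 4, day 10, days 19 to 23 and days 27 to 30, in 2 differentiation experiments named diff2 and diff3, so each of the 10 groups has 2 libraries and every mean ± SD has n = 2. Nothing in the labels names a genetic change in either line, and with 1 line per sex the effects of sex and of line cannot be told apart.

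ATF4 is a transcription factor whose mRNA is translated more when eIF2 is phosphorylated, as happens when amino acids run short or proteins misfold in the endoplasmic reticulum. Its targets include genes that make or import amino acids and genes that act in prolonged stress, and the serine pathway and mitochondrial folate enzymes are among them. Because ATF4 is controlled largely at translation, its mRNA level is not a measure of its activity. Serine made from a glycolytic intermediate feeds glycine and the folate cycle, which supplies carbon units for nucleotides and methylation in dividing cells.

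ATF4 with its partners binds DNA at composite sites for which TGATGCAA is a common core, and the 3 members below are shown because their start-site windows hold this word or its looser form TGATGNNA on either strand. Windows of 300 bases, 250 before to 50 after the start, were taken from RefSeq (GRCm38.p6) and were found for 9 of the 10 members. TGATGCAA occurs in 0.895% of 32851 such windows and TGATGNNA, which includes it, in 14.459%. Capitals mark the match. The Chac1 stretch is chr2:119350992-119351241 on the + strand, the 250 bases before its start, and holds TGATGCAA on the opposite strand. The Asns stretch is chr6:7693210-7693459 on the - strand, the 250 bases before its start, with 2 matches to the looser word at positions −220 and −23. The Trib3 stretch is the 30 bases of chr2:152344028-152344057 on the - strand around its match at position 15.
Chac1: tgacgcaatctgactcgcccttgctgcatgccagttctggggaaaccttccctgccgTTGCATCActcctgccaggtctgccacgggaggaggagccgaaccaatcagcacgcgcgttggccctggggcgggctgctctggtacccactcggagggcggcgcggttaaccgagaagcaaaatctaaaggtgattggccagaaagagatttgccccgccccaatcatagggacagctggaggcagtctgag
Asns: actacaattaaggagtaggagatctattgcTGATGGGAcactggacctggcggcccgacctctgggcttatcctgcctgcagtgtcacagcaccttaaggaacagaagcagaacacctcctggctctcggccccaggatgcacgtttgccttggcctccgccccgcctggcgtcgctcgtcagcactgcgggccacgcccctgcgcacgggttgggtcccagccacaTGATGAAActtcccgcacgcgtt
Trib3: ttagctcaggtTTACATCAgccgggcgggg
The other 6 members with a window (Atf4, Ddit3, Phgdh, Psat1, Psph and Mthfd2) hold neither word there. A match is only a string of letters, and these data do not measure binding.

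Values are CPM, the raw count of a gene over the total count of its library, scaled to a common total. Totals ran from 2020254 to 26936415 counts, and the shallow libraries were E14 diff3 at day 0 (3376500) and at day 4 (2020254), where 3 counts equal 0.888 and 1.49 CPM, against 0.111 to 0.253 CPM elsewhere. E14 diff3 at day 0 also lacked any count for 177 of 7763 genes that stood at 20 CPM or more in its diff2 partner, against 0 to 13 genes in the other groups. Summed over 7 naive markers the libraries held 3201 to 5098 CPM at day 0 and 17.9 to 204.6 CPM later, and over 7 primed markers 67.9 to 147 and then 1618 to 3483 CPM. The cell type label of the diff3 libraries at day 0 names converting cells, although their titles say 2i and their markers are those of the other day 0 libraries. Summed markers of other cell types also moved with time. The 7 endoderm markers summed to 2.37 to 16.2 CPM at day 0, 12.2 to 50.2 (PGK) and 3.61 to 10.9 (E14) at day 4, 206 to 572 and 71.1 to 110.0 at day 10, and 306 to 852 later. The 7 fibroblast markers summed to 0 to 18.1 CPM at day 0, 8.42 to 32.5 and 16.6 to 20.3 at day 4, 17.1 to 52.6 and 44.3 to 54.0 at day 10, and 47.8 to 237 later. The 6 neural markers summed to 45.6 to 93.3 CPM at day 0, 233 to 652 and 372 to 528 at day 4, 362 to 608 and 491 to 673 at day 10, and 87.5 to 562 later. The part of these cells in the changes below was not tested, and in such bulk RNA fewer cells of a type and less RNA per cell cannot be told apart. Titles of the diff2 libraries carry a library code at days 0, 4 and 10 in PGK and E14, so at these days code and experiment cannot be told apart. Tests are edgeR quasi-likelihood tests over all genes, with Benjamini-Hochberg adjusted p and a threshold of 0.05.

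**Figure D1:**
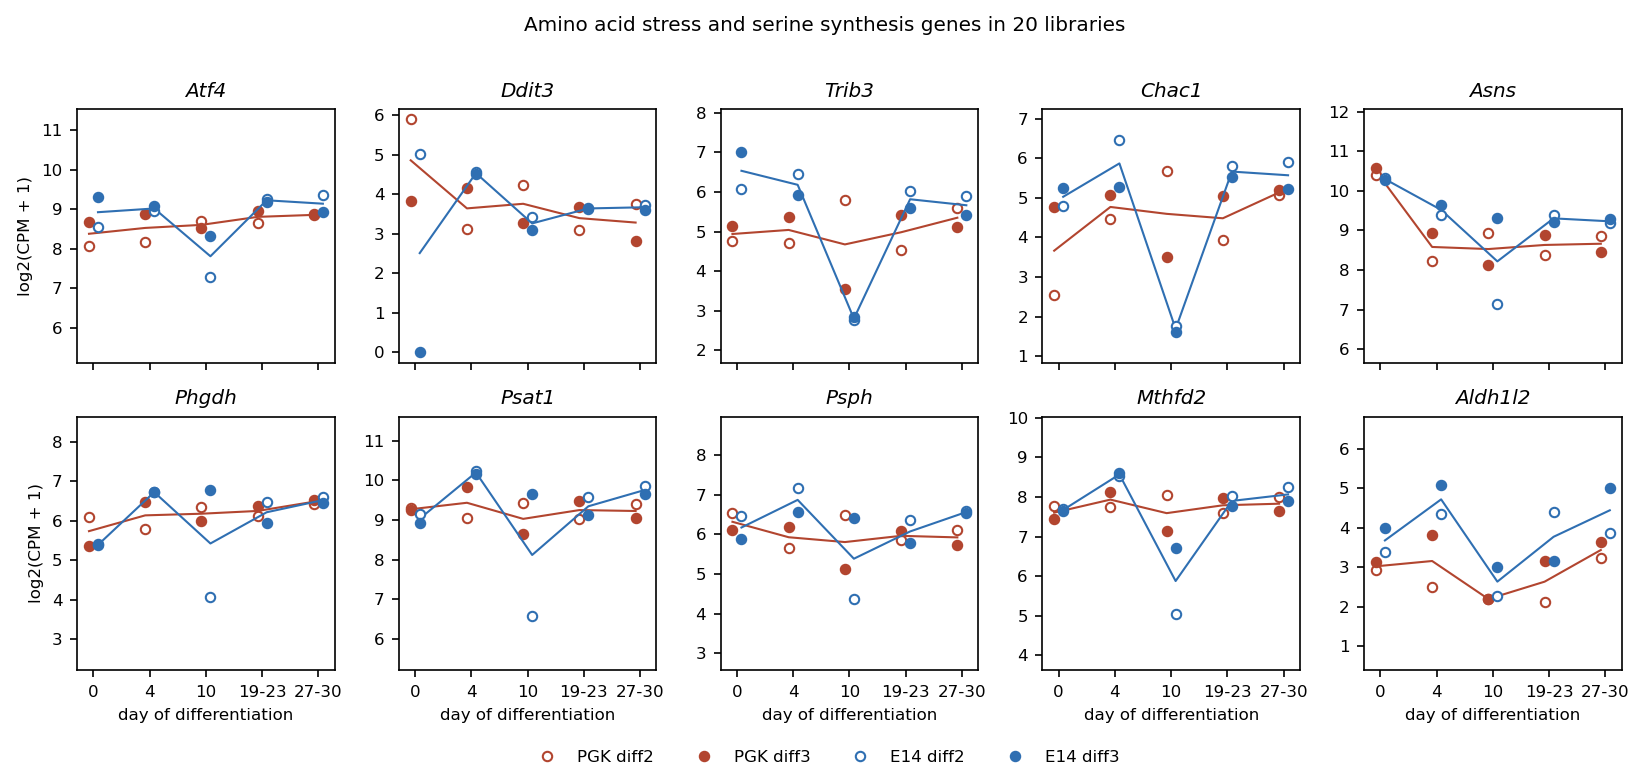
Level of each gene, as log2(CPM + 1), against the stage in days, with PGK in red and E14 in blue; open circles are diff2, filled circles diff3, and lines join the means of the 2 libraries. Every panel spans the same range on the log2 scale: Chac1 and Trib3 dip in both E14 libraries at day 10, the serine genes dip in the diff2 one, and Asns is highest at day 0 in both lines.

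Asns, which encodes asparagine synthetase (GRCm38, chromosome 6, 7675169 to 7693254, - strand), was the member that fell when PGK cells left 2i, and it stayed down. In PGK it measured 1358 CPM (diff2) and 1539 CPM (diff3) at day 0, 298 and 489 at day 4, 489 and 277 at day 10, 333 and 469.8 at days 19 to 23, and 464 and 352 at days 27 to 30. Both libraries at day 0 lay above every later PGK library. The mean went from 1449 ± 128 CPM at day 0 to 393 ± 135 CPM at day 4, a log2 fold change of −1.94 (SE 0.33, edgeR adjusted p = 0.00352), and at days 27 to 30 it stood at 408 ± 79.7 CPM (log2 fold change −1.91, SE 0.33, edgeR adjusted p = 0.0025). The day 4 change ranked 679 among 15284 genes by p, in a comparison in which 6.44% of the genes fell and 8.35% rose. Asns was the 1 member called at day 4, and the 1 called at days 27 to 30, where 12.0% of the genes fell and 13.0% rose. Over all 5 stages of PGK, Asns was again the 1 member that changed (edgeR adjusted p = 0.00233), against 20.0% of all genes. A single member called in 10 is near these shares, so nothing about the 10 genes as a group follows from its count.

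In E14 the same gene was high at day 0, with 1280 and 1234 CPM, and lower at every later stage. Asns measured 667 and 804 CPM at day 4, 139 and 632 at day 10, 672 and 593 at days 19 to 23, and 578 and 621 at days 27 to 30. No later library reached the day 0 level, but edgeR did not call the change at day 4 (−0.74 on the log2 scale, SE 0.55, edgeR adjusted p = 0.442) or at days 27 to 30 (−1.07, SE 0.56, edgeR adjusted p = 0.226). The difference between the lines in these changes did not pass either: −1.17 for day 4 (edgeR adjusted p = 0.768) and −0.79 for days 27 to 30 (edgeR adjusted p = 0.891), PGK minus E14 on the log2 scale.

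Atf4 itself (chromosome 15, 80255184 to 80257541, + strand) was among the steadier members. In PGK its lowest, median and highest libraries measured 268, 413 and 500.1 CPM, and its group means lay between 340.2 ± 102 CPM at day 0 and 463 ± 6.01 CPM at days 27 to 30, with the ranges of neighbouring stages overlapping. In E14 it measured 375 and 629 CPM at day 0, 493 and 546 at day 4, 156 and 322 at day 10, 617 and 581 at days 19 to 23, and 655 and 485 at days 27 to 30. Both E14 libraries at day 10 lay below the other 8 of that line, yet the step from day 4 was not called (−1.10 on the log2 scale, SE 0.41, edgeR adjusted p = 0.417).

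Ddit3, which encodes the transcription factor CHOP of the later stress response, has 2 overlapping loci of that name in GENCODE M21, of which the longer spans chromosome 10, 127290774 to 127296288 on the + strand. Its libraries disagreed most at day 0. Ddit3 measured 58.3 CPM in PGK diff2 and 13.2 in PGK diff3 at day 0, and 6.08 to 17.8 CPM in the other 8 PGK libraries. In E14 it measured 31.5 CPM in diff2 at day 0 and had no count in diff3, where the diff2 level would have given 107 counts and 3 counts would be 0.888 CPM. From day 4 on E14 held 22.5 and 21.8, then 9.73 and 7.59, then 11.7 and 11.3, and last 12.4 and 11.2 CPM, so that both day 4 libraries lay above all later ones. No step of Ddit3 passed the test: in PGK the fold change was −1.59 at day 4 (SE 0.72, edgeR adjusted p = 0.171) and −2.03 at days 27 to 30 (SE 0.73, edgeR adjusted p = 0.0676), both on the log2 scale. DESeq2 called the latter (adjusted p = 0.0153), and edgeR called both once the diff3 library at day 0 was left out (adjusted p = 0.042 and 0.0138). The PGK estimate at day 4 rests on the diff2 library at day 0: with the uncoded libraries alone this change was 0.30. From day 0 to days 27 to 30 Ddit3 was lower in both PGK experiments. On the log2(CPM + 1) scale it changed by −2.15 in diff2 and −1.0 in diff3.

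Chac1 and Trib3 stood out in E14 at day 10, where both fell to a few CPM and then returned. Chac1 encodes an enzyme that degrades glutathione (chromosome 2, 119351229 to 119354381, + strand), and Trib3 a pseudokinase that binds ATF4 (chromosome 2, 152337422 to 152344032, - strand). Chac1 measured 26.9 (diff2) and 37.0 (diff3) CPM in E14 at day 0, 87.5 and 37.6 at day 4, 2.41 and 2.04 at day 10, 54.8 and 45.0 at days 19 to 23, and 59.2 and 36.5 at days 27 to 30. Trib3 measured 66.0 and 127.6 CPM in E14 at day 0, 86.3 and 59.4 at day 4, 5.82 and 6.10 at day 10, 64.6 and 47.5 at days 19 to 23, and 59.2 and 41.8 at days 27 to 30. For both genes the 2 libraries at day 10 agreed closely and lay below all 8 others of the line.

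Between day 4 and day 10 the E14 mean of Chac1 went from 62.6 ± 35.3 to 2.22 ± 0.267 CPM, a log2 fold change of −4.83 (SE 0.58, edgeR adjusted p = 0.0171). The Trib3 mean went from 72.9 ± 19.02 to 5.96 ± 0.200 CPM, a log2 fold change of −3.61 (SE 0.47, edgeR adjusted p = 0.0178). By p they ranked 5 and 8 among 14501 genes, of which 0.0414% fell and 0.145% rose, 6 and 21 genes. So 2 of the 10 members were among the 6 genes that fell. The members were chosen with earlier results of these data known, so this count is not independent evidence about the set. Leaving out a library moved the fold changes little, to between −4.07 and −4.88 for Chac1 and between −3.30 and −3.85 for Trib3, but often ended the call. In this step the summed endoderm and fibroblast markers of E14 were higher at day 10 than at day 4, as given above, and their part was not tested. Chac1 lost it without diff2 at day 4 (adjusted p = 0.28), without diff2 at day 10 (0.0812) and without diff3 at day 10 (0.0678). Trib3 lost it without each of those (0.323, 0.0983 and 0.0705, all from edgeR) and without diff3 at day 4 (0.0548). The fall was seen within each experiment: on the log2(CPM + 1) scale Chac1 differed by −4.70 in diff2 and −3.67 in diff3, and Trib3 by −3.68 and −3.09.

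The return at days 19 to 23 was of nearly the same size, at 4.45 (SE 0.57) for Chac1 and 3.19 (SE 0.46) for Trib3 on the log2 scale, both with an edgeR adjusted p of 0.0539. In that step 0 members and 0% of the genes were called by edgeR, with 4 members and 938 of 14501 genes at an unadjusted p under 0.05. DESeq2 called 3 members (Chac1, Trib3 and Mthfd2) of 261 genes, and limma 1 (Chac1) of 6. Chac1 was also called with the experiment as a block (adjusted p = 0.0414 by edgeR), and Trib3 was not (0.0501). Over all 5 stages Chac1 and Trib3 were the 2 members that changed in E14 (edgeR adjusted p = 0.00417 for both), against 9.96% of the genes.

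In PGK the same genes varied between the experiments. Chac1 measured 4.87 and 26.4 CPM in PGK at day 0, 21.04 and 32.7 at day 4, 50.6 and 10.3 at day 10, 14.2 and 31.9 at days 19 to 23, and 32.4 and 36.0 at days 27 to 30. Trib3 measured 25.9 and 34.0, then 25.1 and 40.5, then 54.4 and 10.8, then 22.2 and 42.2, and last 47.0 and 33.7 CPM. The partners at day 10 stood apart: for both genes diff2 was the highest PGK library, and diff3 was the lowest for Trib3 and the lowest but one for Chac1. The 2 experiments moved in opposite directions from day 4 to day 10: on the log2(CPM + 1) scale 9 of the 10 members were higher in diff2, with a median of 0.63, and all 10 were lower in diff3, with a median of −1.03. Over 13342 genes with a mean of 1 CPM or more those medians were 0.03 and 0.02. In the fit no member was called for this step (0 by edgeR, DESeq2 and limma, 0 at an unadjusted p under 0.05 in edgeR), against 1.51% of all genes by edgeR, 825 genes by DESeq2 and 347 by limma.

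The difference between the lines in the step from day 4 to day 10, a comparison chosen after the values were seen, was 4.97 for Chac1 (edgeR adjusted p = 0.285) and 3.56 for Trib3 (edgeR adjusted p = 0.331), PGK minus E14 on the log2 scale. EdgeR called 0 members and 0.0127% of the genes, and at an unadjusted p under 0.05 it had 4 members and 659 of 15732 genes. DESeq2 called 2 members, Chac1 and Trib3. Its totals over all genes are not given for the comparisons of this paragraph, and the edgeR shares are not the background of its calls. At day 10 itself Chac1 stood at 30.4 ± 28.4 CPM in PGK and 2.22 ± 0.267 CPM in E14 (log2 difference 3.75, edgeR adjusted p = 0.193), and Trib3 at 32.6 ± 30.8 and 5.96 ± 0.200 CPM (2.41, edgeR adjusted p = 0.387). Both PGK libraries lay above both E14 libraries for each gene. EdgeR called 0 members and 0.0636% of the genes at day 10, with 3 members and 579 genes at an unadjusted p under 0.05, while DESeq2 called Chac1 and Trib3, and edgeR called both when the PGK diff3 library at day 10 was left out (adjusted p = 0.0422 and 0.022).

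**Figure D2:**
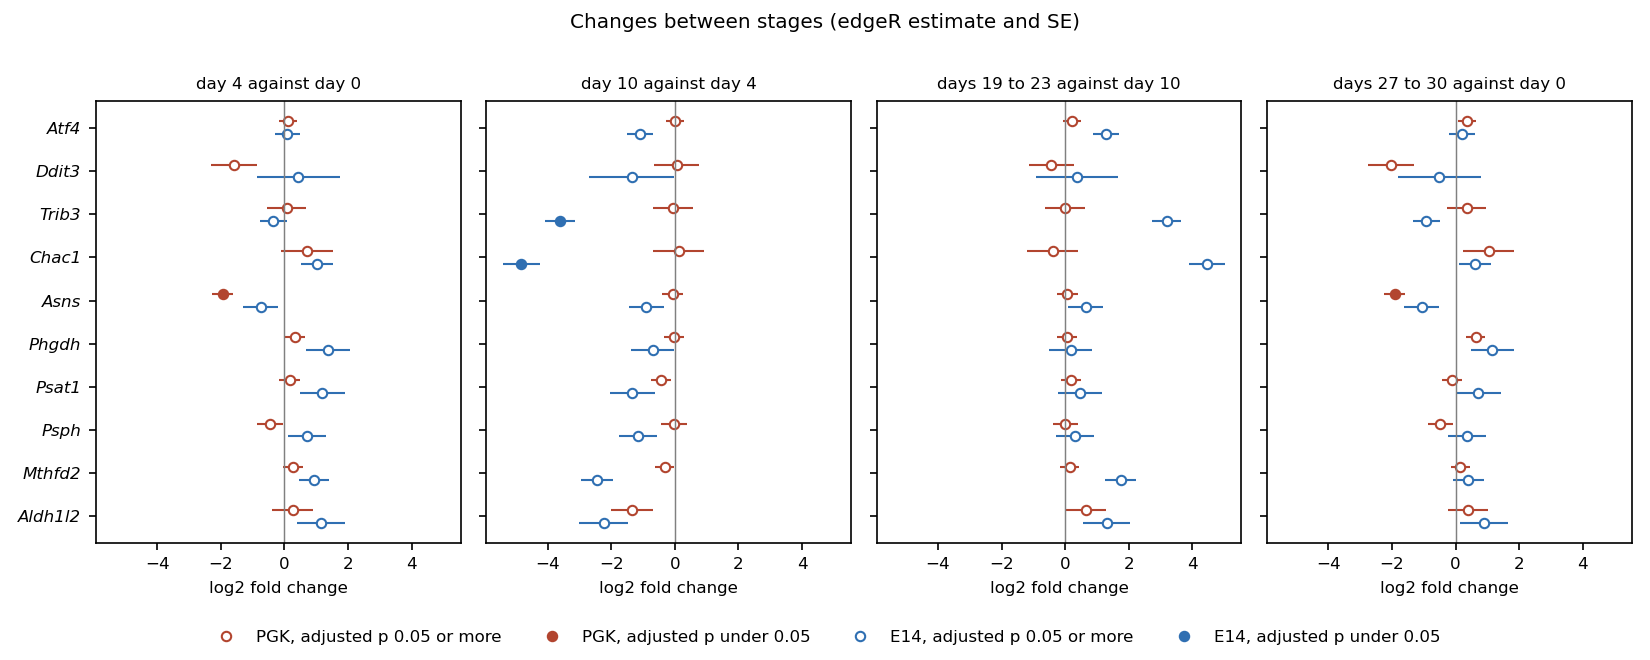
Log2 fold change of each gene in 4 steps, as the edgeR estimate with bars of 1 SE, with PGK in red and E14 in blue; filled circles have an adjusted p under 0.05. The filled circles are Asns in PGK at day 4 and at days 27 to 30, and Chac1 and Trib3 in E14 at day 10.

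The serine synthesis genes encode 3 consecutive enzymes: Phgdh the dehydrogenase that draws on glycolysis (chromosome 3, 98313170 to 98339990, - strand), Psat1 the transaminase (chromosome 19, 15904678 to 15947337, - strand) and Psph the phosphatase that releases serine (chromosome 5, 129765558 to 129787449, - strand). In PGK the stages of Psat1 overlapped, and some of those of Phgdh and Psph lay apart. Phgdh was lower at day 0 (67.5 and 40.4 CPM) than at days 19 to 23 (68.7 and 81.6). At days 27 to 30 (85.0 and 91.5 CPM) it lay above both of these. Psph was higher at day 0 (91.7 and 67.8 CPM) than at days 19 to 23 (56.7 and 66.6). The share of all genes with such ranges apart in PGK was not computed. Phgdh had its lowest, median and highest PGK libraries at 40.4, 74.8 and 91.5 CPM, Psat1 at 397, 616 and 906 CPM, and Psph at 33.9, 67.2 and 91.7 CPM. None of the 3 passed the test in any PGK step, and the largest estimate from day 0 to days 27 to 30 was 0.63 for Phgdh (SE 0.31, edgeR adjusted p = 0.166).

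In E14 all 3 were higher at day 4 than at day 0 in both experiments. Phgdh measured 41.2 and 40.6 CPM at day 0 and 104 and 105 CPM at day 4, Psat1 565 and 483 against 1199 and 1151 CPM, and Psph 87.8 and 57.8 against 143 and 94.0 CPM. The ranges did not overlap, and the log2 fold changes were 1.38 (SE 0.69), 1.19 (SE 0.71) and 0.72 (SE 0.60), with edgeR adjusted p of 0.241, 0.329 and 0.493. Between these stages the ranges also lay apart for Mthfd2 (0.93), Aldh1l2 (1.16) and Chac1 (1.02), which were higher too, and for Asns, which was lower. For Chac1 the gap was small, from 37.0 CPM in diff3 at day 0 to 37.6 CPM in diff3 at day 4. On the log2(CPM + 1) scale Chac1 changed by 1.66 in diff2 and 0.02 in diff3. The share of all genes with ranges apart was not computed. In that comparison edgeR called 0 of the 10 members, with 0 at an unadjusted p under 0.05, against 9.56% of all genes (1386). DESeq2 and limma also called 0 members, with 2817 and 1911 genes called. The day 0 and day 4 libraries of diff3 are the shallow ones.

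At day 10 the E14 partners parted. Phgdh measured 15.8 CPM in diff2 and 108.6 CPM in diff3, Psat1 94.7 and 801 CPM, and Psph 19.6 and 83.8 CPM. For all 3 genes the diff2 library was the lowest of the 20, whereas the diff3 library was within the range of the later stages or, for Phgdh, the highest of the 20. At days 19 to 30 the 4 E14 libraries held 60.5 to 95.4 CPM of Phgdh, 553 to 921 of Psat1 and 54.5 to 95.0 of Psph. The step from day 4 to day 10 was not called for Phgdh (−0.70, SE 0.67, edgeR adjusted p = 0.896), Psat1 (−1.34, SE 0.71, adjusted p = 0.669) or Psph (−1.16, SE 0.60, adjusted p = 0.655). In E14 the low values of these 3 genes thus belong to 1 library, which was the lowest of all 20 for 7 of the 10 members. The share of all genes that were lowest in that library was not computed, so that count is no result about the 10 genes as a group. That library held 12024046 counts, 24.8 CPM of summed naive markers and 1618 CPM of summed primed markers, the lowest primed sum after day 0.

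Mthfd2 and Aldh1l2 act in the mitochondrial arm of the folate cycle, Mthfd2 as a dehydrogenase and cyclohydrolase (chromosome 6, 83305691 to 83325908, - strand) and Aldh1l2 as a formyl-folate dehydrogenase (chromosome 10, 83487450 to 83534140, - strand). In E14 Mthfd2 measured 208 and 199 CPM at day 0, 369 and 389.6 at day 4, 31.9 and 104 at day 10, 259 and 218 at days 19 to 23, and 302 and 236 at days 27 to 30. Both libraries at day 10 were below all others of the line, and the step from day 4 was −2.45 (SE 0.50, rank 78 by p, edgeR adjusted p = 0.103), which did not pass. It did pass by DESeq2 (adjusted p = 0.00037) and in the edgeR fit of both lines together (adjusted p = 0.0132). In PGK Mthfd2 stayed between 139 and 277 CPM.

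Aldh1l2 had low counts, with 3.32 to 13.2 CPM in PGK and 3.83 to 33.2 CPM in E14. In E14 it measured 9.40 and 14.8 CPM at day 0, 19.3 and 33.2 at day 4, 3.83 and 7.04 at day 10, 20.1 and 7.87 at days 19 to 23, and 13.7 and 31.3 at days 27 to 30. The day 10 libraries were again below the other 8, with a step of −2.24 (SE 0.78, edgeR adjusted p = 0.359) that DESeq2 called (adjusted p = 0.0419). In PGK both day 10 libraries measured near 3.6 CPM (3.63 and 3.56), and no step passed.

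Across the set, 5 of the 10 members had an unadjusted p under 0.05 in the E14 step from day 4 to day 10 (Chac1, Trib3, Mthfd2, Aldh1l2 and Atf4), all of them lower, against 1250 of 14501 genes in either direction. The median log2 fold change of the 10 was −1.35 against 0.09 over all genes. All 10 were lower in diff2, against 6226 of 13342 genes. In diff3 9 were lower, against 5713 of those genes, and Phgdh alone was not (0.05 on the log2(CPM + 1) scale). On that scale the median of the 10 was −2.73 in diff2 and −1.08 in diff3, against 0.05 and 0.13 over those genes. The members were chosen with earlier results of these data known, so these counts and medians are not independent evidence about the set. EdgeR, DESeq2 and limma called 0 members from days 19 to 23 to days 27 to 30 in either line and 0 in PGK from day 10 to days 19 to 23, with 0 at an unadjusted p under 0.05 in edgeR. Of all genes edgeR and limma called 0% in these 3 steps, and DESeq2 called 3 (PGK) and 2 (E14) in the late step and 4 in the PGK step from day 10. From day 0 to days 27 to 30 in E14 the 3 tools also called 0 members, with 0 at an unadjusted p under 0.05 in edgeR, which called 13.7% of the genes (1990, against 3476 by DESeq2 and 2575 by limma).

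The lines were also compared at the remaining stages, in a fit of all 20 libraries. EdgeR and DESeq2 called 0 members at day 0, day 4, days 19 to 23 and days 27 to 30, where edgeR called 0.509%, 0.165%, 0.0636% and 0.0572% of the genes. At an unadjusted p under 0.05 edgeR had 1 member at day 0 (1931 of 15732 genes), 1 at day 4 (1054 genes) and 0 at the later stages. The member with the smallest p at day 0 was Trib3, with 25.9 and 34.0 CPM in PGK and 66.0 and 127.6 CPM in E14 (log2 difference −1.61, edgeR adjusted p = 0.253), and at day 4 it was Aldh1l2, with 4.63 and 13.2 CPM in PGK and 19.3 and 33.2 CPM in E14 (−1.53, edgeR adjusted p = 0.739). The ranges did not overlap in either case. At day 4 the ranges of the lines did not overlap for any member, and each was lower in PGK. Among them were Chac1 (−1.22), Trib3 (−1.15) and Asns (−0.90), for which the edgeR adjusted p was 0.864, 0.786 and 0.839. The share of all genes whose ranges lay apart at day 4 was not computed, and edgeR and DESeq2 called no member there. The separation of these ranges is therefore no result about the members as a group. For the difference between the lines in the change, edgeR and DESeq2 called 0 members at day 4 and at days 27 to 30, with 0 at an unadjusted p under 0.05 in edgeR, which called 0.0763% and 0.0509% of the genes.

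The genes whose profile over the 20 libraries was most like that of a member were found by the root mean square difference of log2(CPM + 1), each gene centred on its own mean. This is a description over libraries that share groups and experiments. For Chac1 they were Slc6a9, a glycine carrier (0.594), Trib3 (0.613) and Mthfd2 (0.845), where Chac1 itself varied by 1.30 about its mean. Slc6a9 measured 51.9 and 28.2 CPM in E14 at day 4, 6.32 and 4.34 CPM at day 10, and 21.7 to 37.9 CPM later. For Phgdh they were Anp32b, an acidic nuclear protein (0.341), Gars, the glycyl-tRNA synthetase (0.357), and Psat1 (0.358), with Phgdh at 0.636 about its mean. Gars measured 311 and 792 CPM in E14 at day 10, apart in the same way as Phgdh. For Asns they were Eif2s2, a subunit of eIF2 (0.455), Lonrf1 (0.491) and Pdha1, a subunit of pyruvate dehydrogenase (0.506), with Asns at 0.837 about its mean.

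**Figure D3:**
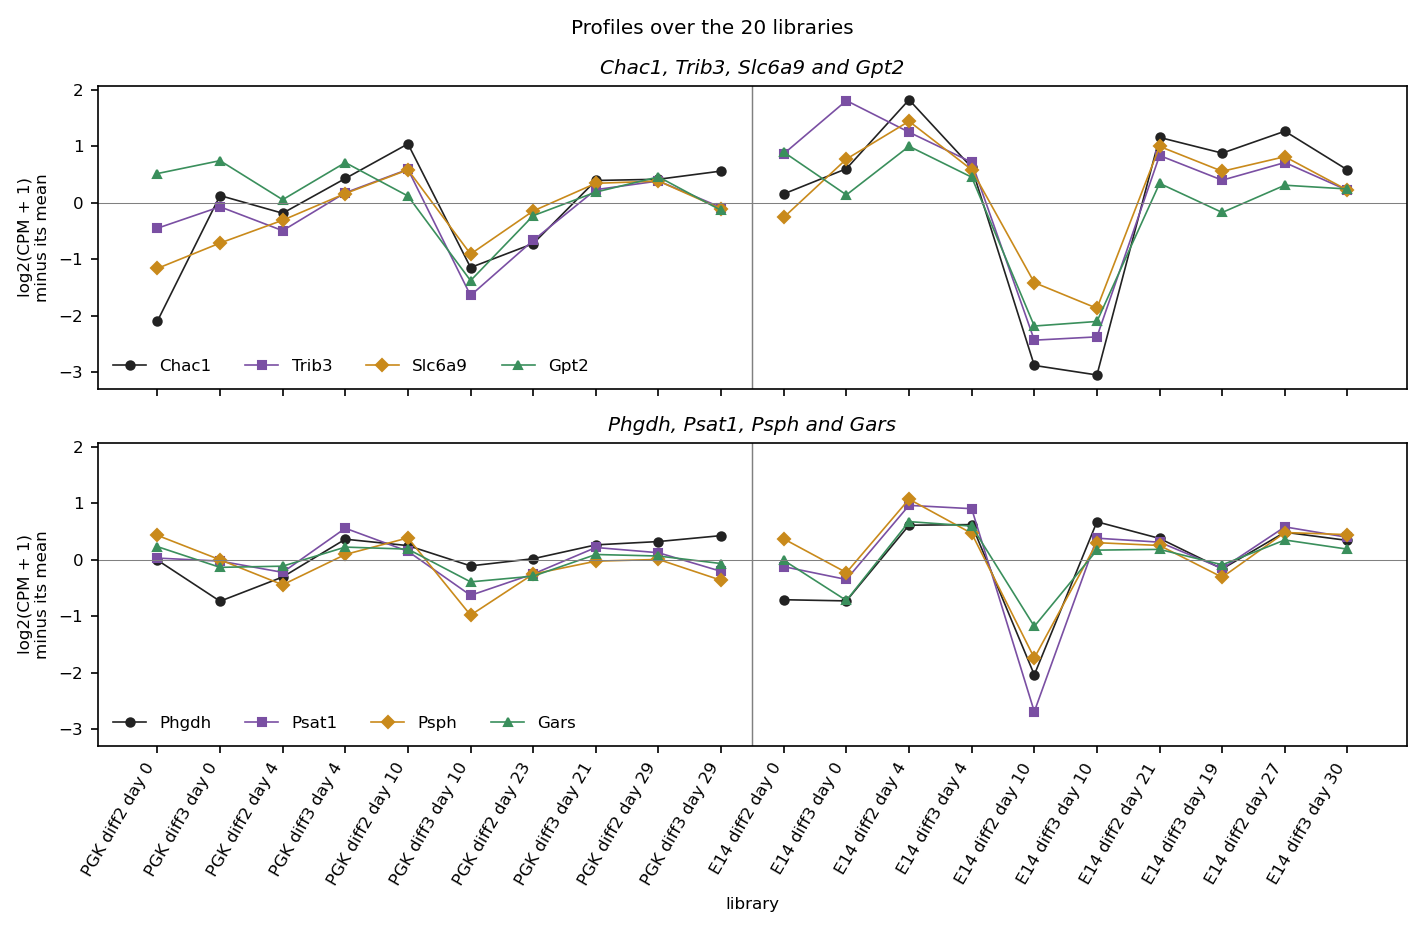
Log2(CPM + 1) minus its mean over the 20 libraries (vertical axis) for 4 genes in each panel, by library (horizontal axis, PGK left and E14 right); lines only guide the eye. In the upper panel Chac1, Trib3, Slc6a9 and Gpt2 are low in both E14 libraries at day 10; in the lower panel Phgdh, Psat1, Psph and Gars are low only in diff2 of the E14 libraries at day 10.

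Other genes of these pathways were read from 6 lists: 23 further ATF4 targets, 14 amino acid carriers, 20 tRNA synthetases, 16 genes of eIF2 and its regulators, 15 further folate cycle genes (14 of them tested) and 16 endoplasmic reticulum chaperones and unfolded protein response genes. In the E14 step from day 4 to day 10, where Chac1 and Trib3 fell, 1 of the 23 ATF4 targets fell and 0 rose, beside 0.0414% and 0.145% of all genes, with a list median of −0.97 against 0.09 over all genes. That gene was Gpt2, the mitochondrial alanine transaminase, with 234 and 160 CPM at day 4 and 24.9 and 26.4 CPM at day 10 (log2 fold change −2.94, SE 0.40, edgeR adjusted p = 0.022). Among the other lists edgeR called no gene there, and the medians were −0.80 for the carriers, −0.85 for the tRNA synthetases, 0.05 for the eIF2 genes, −0.15 for the folate genes and 0.00 for the chaperones. The ATF4 target, carrier and synthetase lists were lower in both experiments, with medians of −1.07, −1.29 and −1.26 in diff2 and −0.80, −0.60 and −0.32 in diff3 on the log2(CPM + 1) scale. In PGK no gene of the 6 lists was called in this step, and the 2 experiments moved in opposite directions. On the same scale the PGK medians of the ATF4 target, carrier and synthetase lists were 0.21, 0.30 and 0.13 in diff2. In diff3 they were −0.72, −0.44 and −0.57.

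**Figure D4:**
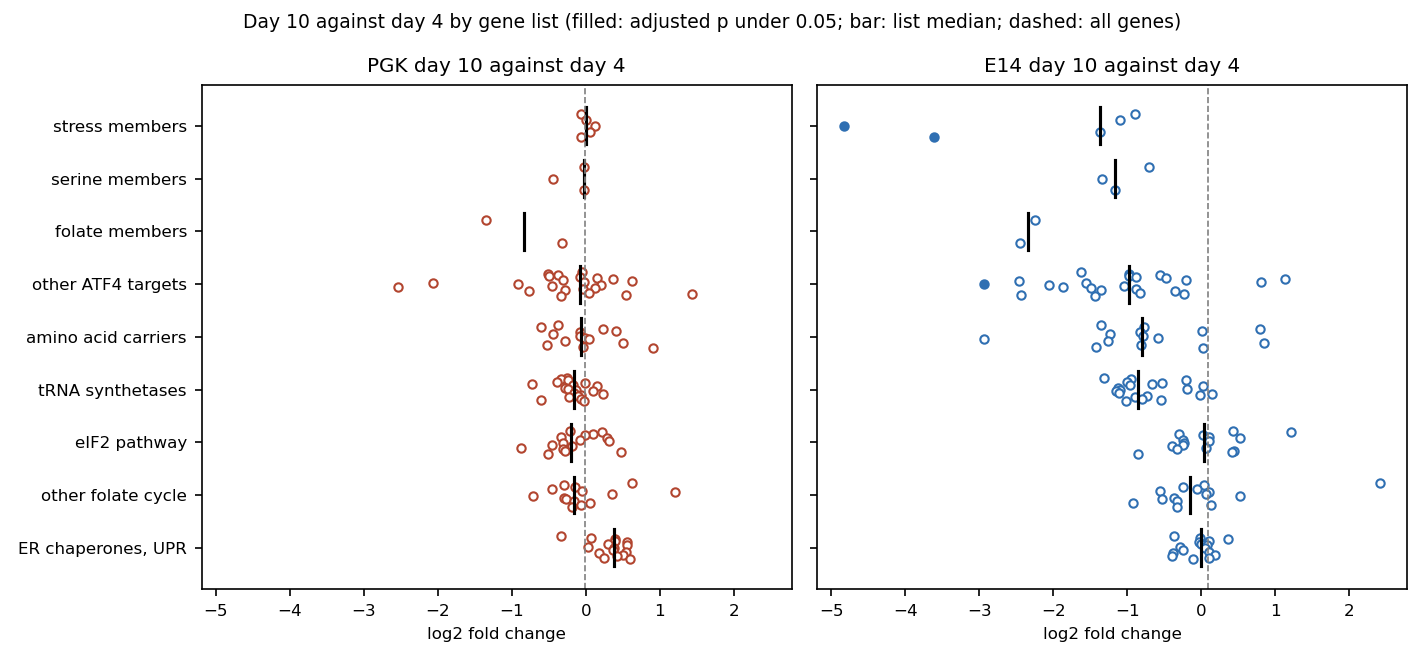
Log2 fold change from day 4 to day 10 (horizontal axis) of every tested gene in 9 lists (vertical axis), PGK left and E14 right; filled circles have an adjusted p under 0.05, black bars are list medians and the dashed line is the median of all genes. In E14 the filled circles are Chac1, Trib3 and Gpt2, and the medians of the ATF4 target, carrier and synthetase lists lie left of the dashed line.

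From day 0 to day 4 in PGK, where Asns fell, the lists held few calls, beside 6.44% of all genes that fell and 8.35% that rose. Among the eIF2 genes 2 of 16 fell, Eif2b5, a subunit of the exchange factor eIF2B (−1.03, SE 0.19, edgeR adjusted p = 0.00567), and Eif2s2 (−1.52, SE 0.29, adjusted p = 0.00587), with a list median of −0.08 against −0.01 over all genes. Of the ATF4 targets 1 of 23 fell, Vegfa, a growth factor of blood vessels (−1.82), and the list median was −0.28. Of the carriers 1 of 14 rose, Slc38a2, a carrier of small neutral amino acids (1.5), with a median of 0.53. Of 14 folate genes Mthfd2l, the relative of Mthfd2, rose (2.63) and Aldh1l1, the cytosolic relative of Aldh1l2, fell (−1.51), and the synthetase and chaperone lists held no call, with medians of −0.07 and −0.35.

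In E14, where 748 of 14501 genes rose and 638 fell in the same step, it gave Mthfd2l as a rise of 3.89 and Aldh1l1 as a change of −3.83 on the log2 scale among the folate genes (1 higher and 1 lower of 14). Carriers had 2 of 14 higher, Slc7a3 for cationic amino acids (2.03, SE 0.31, edgeR adjusted p = 0.00282) and Slc7a6 (1.76), and 1 lower, Slc36a1 (−2.42), with a list median of 0.71 against 0.15 over all genes. Of the ATF4 targets Vldlr, a lipoprotein receptor, rose by 2.41 and Nupr1, a stress-induced nuclear protein, fell by 3.89, and the list median was 0.19. The eIF2, synthetase and chaperone lists held no call.

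By days 27 to 30 PGK had 4 of 23 ATF4 targets lower and 1 higher than at day 0, with a median of −0.34 against −0.06 over all genes. The counts of the lists in this comparison stand beside 12.0% of all genes lower and 13.0% higher. Cth, which makes cysteine, fell by 1.70 on the log2 scale (SE 0.38, edgeR adjusted p = 0.00929), Nupr1 by 5.09 and Jdp2, a transcriptional repressor, by 2.56. The others, named after their values were seen, were Gdf15 (−4.29) and Vldlr, the one that rose (2.48). Of the eIF2 genes 4 of 16 fell, led by Eif2b5 (−1.43, SE 0.19, edgeR adjusted p = 0.000619), Eif2b4 (−1.27) and Eif2s2 (−1.06), with a median of −0.32. Of the carriers 3 of 14 rose, among them Slc36a4 (3.85) and the cystine carrier Slc7a11 (3.02), and 1 fell, Slc1a5 (−1.37), with a median of 0.61. Of 14 folate genes 2 rose, Mthfd2l by 4.10 among them, and 3 fell, including Mtrr (−1.67) and Mthfd1 (−1.08), both of the cytosolic and methionine arm. The synthetase list had Aars lower (−0.89) and the chaperone list Manf higher (0.73), each as the list's single call.

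E14 at days 27 to 30 gave Nupr1 (−6.12) and Cth (−1.29) lower and Vldlr (2.61) higher among 23 ATF4 targets, with a median of −0.20 against 0.19 over all genes, of which 1266 of 14501 were higher and 724 lower. Carriers had 3 of 14 higher, Slc7a6 (1.95), Slc7a3 (1.29) and Slc7a11 (3.58), and none lower. The folate list had Mthfd2l higher (4.70) and Mtrr lower (−1.68), the synthetase list Qars lower (−1.07), the chaperone list Manf higher (1.54), and the eIF2 list no call. The 10 members held no call in that comparison, and whether the members differ from the lists was not tested.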

How the data were processed

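Members and lists were chosen with earlier results of these data known. Libraries were grouped by line and day from the labels. Per the submitters' processing notes, CASAVA 1.8.2, Cuffdiff and DESeq2 were used with GRCm38 (mm10); which aligner and annotation were used, and whether counting used strand, is not given in the sources used here. The authors deposited raw counts per gene, the same counts divided by a size factor per library (a signal, within 1.4e-09 of that ratio) and variance-stabilized log2 values. From the counts CPM were computed. The deposited log2 values were used for limma alone.

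Tests used edgeR 4.0.16 in R 4.3.3 with TMM, filterByExpr (minimum count 10), robust quasi-likelihood fits and Benjamini-Hochberg adjustment over all genes tested, at 0.05. Within a line the 10 libraries were fitted (15284 genes in PGK, 14501 in E14), and between lines all 20 (15732 genes), in 20 comparisons, 1 of them added after the data were seen. The code was tested on simulated data. Alternatives were DESeq2 1.42.0, limma 3.58.1, other size factors, no filter, a block for the experiment, a term for the library code, left-out libraries and, added later, the libraries without a code. Replicates share an experiment across stages per the labels, which pairs them, and the main fit held no term for the experiment. Their deviations correlated by −0.117 to 0.547 between PGK stages and −0.21 to 0.24 between E14 stages (13342 genes). Among days 0, 4 and 10 of PGK the correlations were 0.42 to 0.547, and PGK pairs with a later stage had −0.117 to 0.123. Whether the cultures are biologically separate beyond the experiment name is not stated, so p-values measure the spread between these samples.

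Genes were named by this rule: the 10 members, up to 3 called genes with the smallest adjusted p per list and comparison, and the 3 genes most like Asns, Chac1 and Phgdh, leaving out predicted genes. In GENCODE M21 (GRCm38) Psph shares 452 bases with Cct6a, Aldh1l2 1056 with D10Wsu102e, Ddit3 68 with Mars and Psat1 556 with a pseudogene, all on opposite strands, and Mthfd2 2799 with Gm43890 on its own strand, so part of their counts could come from those. The set of 27 entries whose names were turned into dates holds no member. Counting error alone, taken as 3 counts, sets the limits given for genes without counts.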

Additional observations from a re-analysis of the deposited data

How the results depend on the processing

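Of 240 values of the member counts under alternatives 205 stayed within 1.5 times the count reported and 35 moved, and the cause was not tested. With the experiment as replicate block 1 member was called at days 19 to 23 in E14 (Chac1), and no other member call changed under the block. RLE size factors gave 1 there, no low-count filter 2, DESeq2 3 and limma 1; without a filter, the difference between lines from day 4 to day 10 gave 1. DESeq2 gave 2 members in PGK at days 27 to 30, 2 over all PGK stages, 4 in E14 at day 10, 2 between lines at day 10 and 2 in the difference from day 4 to day 10. The libraries without a code, which leave days 0, 4 and 10 with 1 library each, assumed to vary like the later stages, gave in PGK 2 at day 4, 4 at day 10, 2 at days 27 to 30 and 5 over all stages, and in E14 5 at day 4, 4 at days 19 to 23, 5 at days 27 to 30 and 7 over all stages. The Ddit3 change in PGK at day 4 turned to 0.30 there. In each of these comparisons the fit of libraries without a code also called more of all genes than the main fit. With 1 library at days 0, 4 and 10 the spread at those days was assumed and not measured. The member counts of these fits are therefore no evidence about the 10 genes as a group.

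Leaving out each library in turn, the members called ranged from 1 to 2 in PGK at day 4, at days 27 to 30 and over all stages (2 without diff3 at day 0, with Ddit3 added). In E14 they ranged from 0 to 1 at day 4, 0 to 3 at day 10, 0 to 2 at days 27 to 30 and 2 to 6 over all stages, where 4 came without diff2 at day 0 and 6 without diff3 at day 10. Without E14 diff2 at day 0 that group is the shallow library alone. Between lines they ranged from 0 to 2 at day 0, 0 to 2 at day 10, and for the differences 0 to 1 at day 4, 0 to 1 at days 27 to 30 and 0 to 2 from day 4 to day 10. In E14 at day 10, 27 genes were called in all, against 139 without a filter, 208 in the fit of both lines, 499 by DESeq2, 1111 with the libraries without a code, and, leaving out a library, from 0 (without diff2 at day 4) to 30. Without diff3 at day 10 the 3 members called there were Asns, Mthfd2 and Psat1 in place of Chac1 and Trib3. In PGK at day 4, 2260 genes were called in all, against 1366 without diff3 at day 4 and 3698 with a term for the library code. Of 769 values for single genes 651 kept their side, 86 lost and 31 gained a call, and 1 reversed (Ddit3, above). With 2 libraries a group, and 3376500 and 2020254 counts in the shallow ones, genes that were not called may still have changed.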

Other observations

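The profiles of the other members were also compared with all genes, a choice made after the values were seen. Psph was most like Shmt2, the mitochondrial enzyme that turns serine into glycine (root mean square difference of centred log2(CPM + 1) 0.240 over 20 libraries), and the tRNA synthetase genes Nars (0.280) and Gars (0.292). Mthfd2 was most like Slc7a5, a carrier of large neutral amino acids (0.303), Psat1 (0.345) and Aldh18a1, an enzyme of proline synthesis (0.348). Slc7a5 measured 105 CPM in diff2 and 364 CPM in diff3 of E14 at day 10, against 723 and 559 CPM at day 4. Atf4, whose profile varied by 0.480 about its mean, had no other member among its 3 most like genes.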
